A study of Mus musculus with 6 samples.

Results

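The genes described here are 6 response genes, ligands and signal transducers of the TGF-beta superfamily, namely Inhba, Pmepa1, Smad9, Id3, Id4 and Tgfbi, out of 581 genes in a table of differential expression. They were picked by gene symbol from that table, in which every gene had already been selected by the authors on the same 6 libraries, so each scaffold and plate difference below is a description of values that chose the gene and carries no test. The libraries came from NIH-3T3 cells, an immortalised fibroblast line of mouse embryo origin labelled as wild type, in DMEM with 10% fetal bovine serum. The cells grew on the Nanopore #3 scaffold in 3 libraries and on standard plates in 3 libraries. The series asks how the scaffold affects fibroblast gene expression. The labels used here do not state the material or pore size of the scaffold, the time in culture, or whether the replicates of a surface were separate cultures.

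TGF-beta, the activins and the bone morphogenetic proteins (BMPs) are secreted dimers that bind pairs of serine/threonine kinase receptors on the cell surface. The TGF-beta and activin receptors mainly phosphorylate the proteins Smad2 and Smad3, and BMP receptors mainly phosphorylate Smad1, Smad5 and Smad9, and the phosphorylated Smads enter the nucleus with Smad4 and change transcription. In fibroblasts the TGF-beta branch is known for driving matrix synthesis and the contractile myofibroblast state, and the Id genes are classical early targets of the BMP branch. Inhba encodes the beta A subunit that forms activin A as a dimer. Pmepa1 encodes a membrane protein that TGF-beta induces and that sequesters Smad2 and Smad3, Tgfbi a secreted matrix protein named for its induction by TGF-beta, and Id3 and Id4 proteins that bind basic helix-loop-helix (bHLH) transcription factors and keep them off DNA.

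The sequences of Id3 and Id4 are shown because these 2 members of a family of 4 lay in opposite directions in these data. The 120 coding bases that matched best between them, without gaps and in frame, were identical at 86 positions (71.7%). They lie in the first of 2 coding exons of each gene on the plus strand, at chr4:136144005-136144124 for Id3 and at chr13:48261696-48261815 for Id4, GRCm38. Capitals mark the bases that are identical in the pair.
Id3: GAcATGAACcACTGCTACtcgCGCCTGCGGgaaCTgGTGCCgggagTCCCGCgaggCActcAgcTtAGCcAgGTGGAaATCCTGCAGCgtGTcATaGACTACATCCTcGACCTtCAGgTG
Id4: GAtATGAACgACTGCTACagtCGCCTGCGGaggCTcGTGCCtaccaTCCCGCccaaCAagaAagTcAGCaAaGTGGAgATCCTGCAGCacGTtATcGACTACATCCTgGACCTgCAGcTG
The longest run of identical bases in the annotated transcripts of the pair was 14 bases, and among the pairs of Id1, Id2, Id3 and Id4 it was 11 to 17 bases. Smad9 shared a run of at most 29 bases with Smad1 and 20 with Smad5. Of the exon length of Id4, 171 bases (4.44%) overlap non-coding genes on the opposite strand, and use of strand in counting is not given in the sources used here. Exons of the other 5 genes overlap no exon of another gene in GENCODE M21.

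The promoter windows of 300 bases, from 250 before to 50 after the RefSeq start, were found for 5 of the 6 genes and are given as GRCm38.p6 coordinates. The windows of Id3 (chr4:136143572-136143871, plus strand) and Id4 (chr13:48260866-48261165, plus strand) are printed whole for the same contrast, with capitals for bases that match a searched motif.
Id3: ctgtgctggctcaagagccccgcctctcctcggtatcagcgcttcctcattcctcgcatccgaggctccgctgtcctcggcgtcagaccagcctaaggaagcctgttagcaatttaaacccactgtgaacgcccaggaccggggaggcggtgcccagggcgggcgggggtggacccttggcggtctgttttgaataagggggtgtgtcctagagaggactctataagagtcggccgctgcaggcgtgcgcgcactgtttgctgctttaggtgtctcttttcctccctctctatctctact
Id4: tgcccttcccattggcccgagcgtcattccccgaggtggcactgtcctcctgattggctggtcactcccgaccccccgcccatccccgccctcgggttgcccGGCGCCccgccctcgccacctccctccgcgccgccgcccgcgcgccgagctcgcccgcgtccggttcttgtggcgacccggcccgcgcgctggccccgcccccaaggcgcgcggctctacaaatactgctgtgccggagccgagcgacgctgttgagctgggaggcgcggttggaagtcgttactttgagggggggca
The motifs searched, on both strands, were CAGACA (a Smad3 and Smad4 box core), GTCTAGAC (the palindromic Smad box, which shares AGAC with the core), GGCGCC (a GC-rich element bound by Smad1 and Smad5), the longer BMP-responsive element of Id enhancers (which begins with GGCGCC), the AP-1 site TGANTCA, the E-box CANNTG and the core promoter box TATAAA, which TBP binds. None of them occurred in the Id3 window. GGCGCC occurred once each in the windows of Id4, Tgfbi and Smad9, and in 11.9% of 32851 promoter windows of mouse genes. Those 3 windows are rich in G and C, with 73.3%, 63.3% and 73.7% of bases, against a median of 52.7% over all windows. The Id3 window, which lacks GGCGCC, had 60.0%, close to Tgfbi. Inhba, with 47.7%, held TATAAA (13.6% of all windows), and Smad9 also held an E-box (72.3% of all windows). The TATAAA of Inhba lay at offset -91 from the RefSeq start, and whether it acts as a core promoter box was not tested. CAGACA (21.0% of all windows), TGANTCA (7.81%), GTCTAGAC (0.213%) and the longer element (0.0731%) were in none of the 5 windows. The 30 bases around these matches are shown with the motif in capitals, at chr13:48260956-48260985 for Id4, chr13:56609497-56609526 for Tgfbi, chr3:54755519-54755548 for Smad9 and chr13:16011748-16011777 for Inhba, all on the plus strand.
Id4: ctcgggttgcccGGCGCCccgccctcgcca
Tgfbi: cgtggtctgggaGGCGCCggctgcccttcc
Smad9: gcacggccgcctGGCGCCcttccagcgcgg
Inhba: acaacttctaaaTATAAAtctctggcacat
A match is a description of letters, and nothing was measured at these sites. The RefSeq start used for the Id3 window lies 325 bases downstream of the gene start in the deposited table, so that window is not upstream of every annotated Id3 transcript. For Id4 the RefSeq start lies 112 bases upstream of that gene start, so the Id4 window ends before it. For Tgfbi it lies 63 bases downstream, and for Inhba and Smad9 the starts are the same.

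The deposited values are read counts divided by a size factor for each library, and are called normalised read counts here. Size factors ran from 0.944 to 1.09, and the 5 libraries with recovered whole reads held 264178 to 293198 reads over the 581 genes. All 6 genes passed the filter on low values, a mean of at least 0.5. In a limma fit over the whole table, all 6 genes had an adjusted p under 0.05, as did 99.7% of the table, and in all 6 the groups did not overlap, as in 98.6% of the table (32.2% higher and 66.4% lower on the scaffold). By the limma calls, 32.2% of the table was higher and 67.5% lower on the scaffold, and the 6 genes were divided into 3 and 3, with a median difference of -0.09 on the log2 scale against -1.16 over all 581 genes. The median of the 6 falls between the higher and the lower genes and describes none of them. Since the table was selected on this contrast, nothing is read from these counts. Of 10 fibroblast markers the table held Col1a1 and Col1a2, so the labelled cell type could not be checked further. Their summed value was 23212 to 30363 on the scaffold and 56194 to 57427 on plates. The table also held Acta2, of 3 myofibroblast markers, at 51.5 to 89.5 on the scaffold and 128 to 161 on plates, Krt8, of 4 epithelial markers, at 29.8 to 37.6 on the scaffold and 13.3 to 17.5 on plates, and Sox9, of 4 cartilage and bone markers, at 3815 to 4129 on the scaffold and 1576 to 1614 on plates. It held none of the endothelial, leukocyte, skeletal muscle and adipocyte markers. The part of cell composition in the results was not tested. In bulk RNA, a lower value from fewer cells of a type and one from less RNA per cell cannot be told apart.

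**Figure D1:**
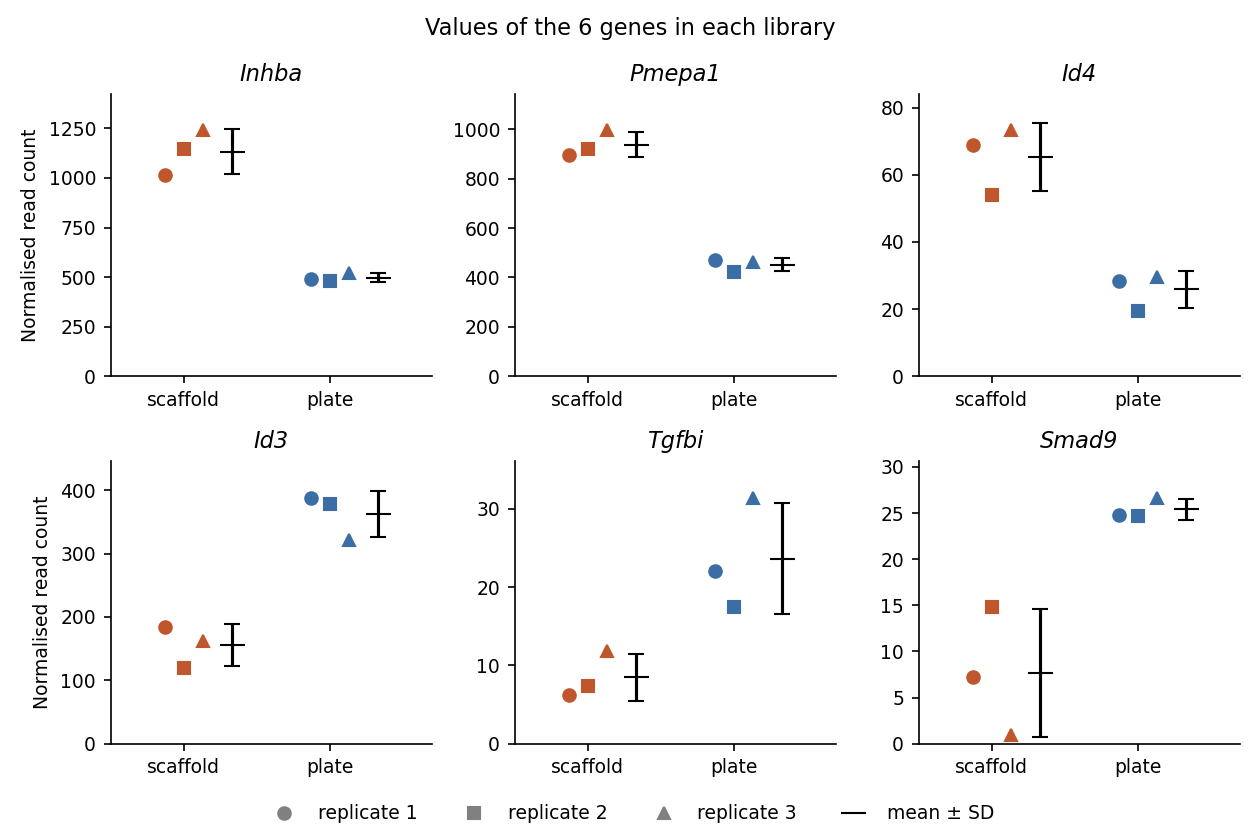
Normalised read count (y axis, linear, from 0) of each of the 6 genes in the 3 scaffold libraries and the 3 plate libraries, with symbols for replicates and bars for mean ± SD. Inhba, Pmepa1 and Id4 lie higher on the scaffold and Id3, Tgfbi and Smad9 lower, and the scaffold values of Smad9 spread from 0.990 to 14.8.

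The ligand subunit gene and the feedback inhibitor gene, both of high abundance among the 6, were higher on the scaffold, each by slightly more than 2-fold. Inhba (ENSMUSG00000041324, chr13:16011851-16031621, plus strand, GRCm38) had 1014, 1145 and 1240.3 normalised reads on the scaffold, against 492, 479.5 and 522 on plates. The lowest scaffold library was 1.94 times the highest plate library, so the groups were far apart. The means were 1133 ± 114 on the scaffold and 498 ± 21.6 on plates (SD, n = 3 each), a ratio of 2.28 and a difference of 1.18 on the log2(value + 1) scale (SE 0.0989). The plate libraries lay close together, with a coefficient of variation of 4.34%, and the scaffold libraries spread more, with 10.0%.

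Pmepa1 (ENSMUSG00000038400, chr2:173224458-173276533, minus strand) had 898, 919 and 996 normalised reads on the scaffold, against 469.8, 422 and 464 on plates. No scaffold library came near the plate range, the lowest being 1.91 times the highest plate library. The means were 938 ± 51.5 on the scaffold and 452 ± 26.0 on plates (SD, n = 3 each), a ratio of 2.08 and a difference of 1.05 on the log2(value + 1) scale (SE 0.0923). This ranked Pmepa1 172nd by size among the 189 genes that were higher on the scaffold, near the lower edge of a table whose smallest difference, computed on the log2 ratio of group means, was 0.997. Its coefficients of variation, 5.50% on the scaffold and 5.76% on plates, were similar on the 2 surfaces, where the medians over the table were 21.2% on the scaffold and 14.0% on plates. Only 8.61% of the table had a smaller scaffold coefficient of variation than Pmepa1. The median gene of the table had a mean value of 42.5, far below Pmepa1, and low values carry more counting error. The part of depth in this contrast was not tested.

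Smad9, the BMP signal transducer, was a low gene with more than 3-fold less signal on the scaffold on average, and its scaffold libraries disagreed with each other. Smad9 (ENSMUSG00000027796, chr3:54755582-54801257, plus strand) had 7.20, 14.8 and 0.990 normalised reads on the scaffold, against 24.8, 24.7 and 26.6 on plates. All 3 plate libraries were nearly equal, while the scaffold libraries ranged from a value worth 1 read in replicate 3 to 14.8 in replicate 2. The means were 7.67 ± 6.93 on the scaffold and 25.4 ± 1.09 on plates (SD, n = 3 each), and the difference was -2.05 on the log2(value + 1) scale (SE 0.642). The scaffold coefficient of variation of 90.3% exceeded that of 96.2% of the table, and the plate coefficient of 4.30% was below most of it.

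The reads behind Smad9 were few. It had 7 and 14 reads in scaffold replicates 1 and 2, against 27, 24 and 28 in the plate libraries. Exact Poisson 95% intervals of the normalised value, which cover counting error only, were 2.89 to 14.8 and 8.11 to 24.9 in those scaffold libraries, and the interval of replicate 2 overlapped all 3 plate intervals, the lowest of which began at 15.8. The plate intervals were 16.4 to 36.1, 15.8 to 36.7 and 17.7 to 38.5, far wider than the spread of the plate values, 24.7 to 26.6. Counting error alone can thus move a plate value further than the plate libraries differed. The low plate coefficient of variation therefore does not show that Smad9 was steady on plates. Scaffold replicate 3, whose reads were not recovered by the preset check, lay below both scaffold intervals. Over the 5 libraries with recovered reads, 21 scaffold reads and 79 plate reads gave a normalised plate over scaffold ratio of 2.32 (95% interval 1.42 to 3.95), against 3.31 for the ratio of means over all 6 libraries. This interval, and those of ratios from summed reads below, cover counting error only and leave out the spread between libraries. Without scaffold replicate 3 the log2 difference was -1.21, and without scaffold replicate 2 it was -2.71.

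**Figure D2:**
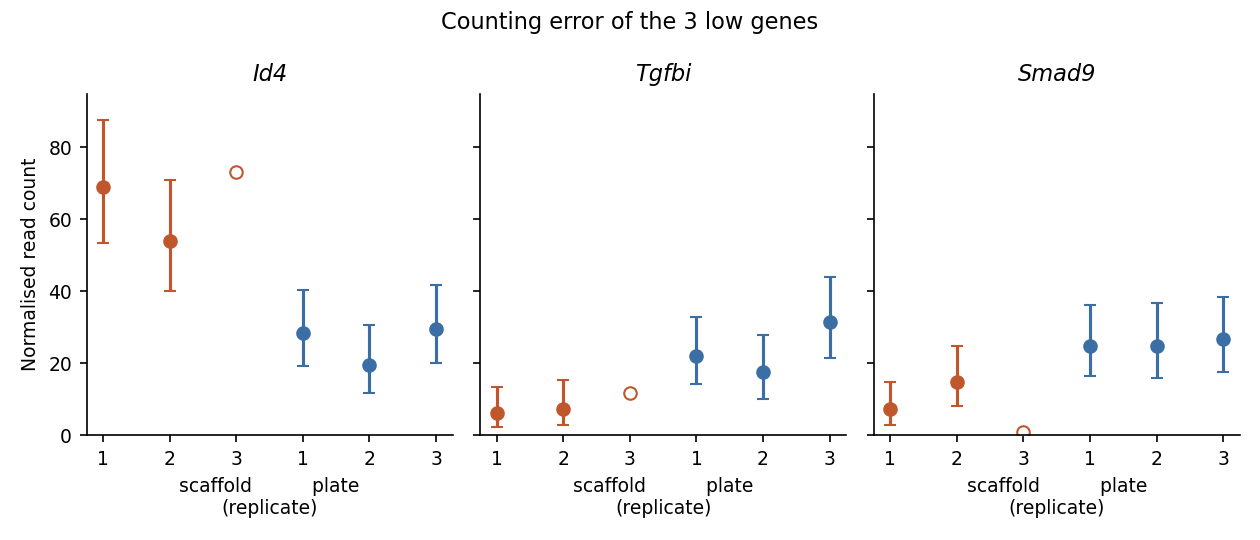
Normalised read count (y axis) of Id4, Tgfbi and Smad9 in each library (x axis, scaffold replicates then plate replicates), with exact Poisson 95% intervals as bars; the open circle is scaffold replicate 3, which has no interval. Single-library intervals of the 2 surfaces overlap for all 3 genes, and Smad9 in scaffold replicate 3 lies at 0.990.

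The 2 Id genes lay in opposite directions on the scaffold, with the more abundant Id3 lower and the less abundant Id4 higher. Id3 (ENSMUSG00000007872, chr4:136143497-136145755, plus strand) had 184, 120 and 162 normalised reads on the scaffold, against 388, 378 and 322 on plates. The highest scaffold library stayed well under the lowest plate library, which was 1.75 times as high. The means were 155 ± 32.8 on the scaffold and 362 ± 35.7 on plates (SD, n = 3 each), a difference of -1.23 on the log2(value + 1) scale (SE 0.170). Recovered reads were 179 and 113 in scaffold replicates 1 and 2, and the intervals of these libraries, 158 to 213 and 98.6 to 144, did not overlap.

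Id4 (ENSMUSG00000021379, chr13:48261228-48266026, plus strand) had 68.9, 54.0 and 73.3 normalised reads on the scaffold, against 28.5, 19.6 and 29.5 on plates. Every scaffold library was at least 1.83 times the highest plate library. The means were 65.4 ± 10.1 on the scaffold and 25.9 ± 5.48 on plates (SD, n = 3 each), a ratio of 2.53 and a difference of 1.32 on the log2(value + 1) scale (SE 0.237). The reads were 67 and 51 in scaffold replicates 1 and 2, and 31, 19 and 31 in the plate libraries. The interval of scaffold replicate 2, 40.2 to 71.0, overlapped those of plate replicates 1 and 3, 19.4 to 40.5 and 20.05 to 41.9. Over the 5 libraries the reads gave a normalised scaffold over plate ratio of 2.36 (95% interval 1.77 to 3.18, for counting error only).

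Tgfbi, the TGF-beta-induced matrix gene, was low on both surfaces and lower on the scaffold. Tgfbi (ENSMUSG00000035493, chr13:56609523-56639562, plus strand) had 6.17, 7.41 and 11.9 normalised reads on the scaffold, against 22.1, 17.5 and 31.4 on plates. The groups came close, the lowest plate library being 1.47 times the highest scaffold library, the smallest such gap among the 6 genes. The means were 8.49 ± 3.00 on the scaffold and 23.7 ± 7.09 on plates (SD, n = 3 each), a difference of -1.38 on the log2(value + 1) scale (SE 0.348). There were 6 and 7 reads in scaffold replicates 1 and 2, against 24, 17 and 33 in the plate libraries. The sums of 13 and 74 reads gave a normalised plate over scaffold ratio of 3.51 (95% interval 1.93 to 6.90, for counting error only). These sums leave out scaffold replicate 3, the scaffold library nearest to the plates for Tgfbi. The ratio of means over all 6 libraries was lower, at 2.79.

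Over the whole table, scaffold replicate 3 was most often the scaffold library farthest from the plates. It was the farthest in 93 of the 189 higher genes and 196 of the 392 lower genes, and replicate 1 was in 31 and 76 of them. Inhba, Pmepa1 and Id4 had their highest value in replicate 3 and Smad9 its lowest. Id3 and Tgfbi did not share this, with their lowest values in scaffold replicates 2 and 1, and Tgfbi was nearest to the plates in replicate 3. Without scaffold replicate 3 the log2 differences were 1.11 for Inhba, 1.01 for Pmepa1, 1.23 for Id4, -1.28 for Id3 and -1.63 for Tgfbi.

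Ratios of 2 genes inside a library do not depend on the scaling of that library, and they separated the surfaces for 3 of 5 pairs. Each of these 3 pairs sets a gene higher on the scaffold over a lower one. As neither gene overlapped between the surfaces, that separation was fixed in advance and adds no evidence. The ratio of Id4 to Id3 was 0.374, 0.451 and 0.451 on the scaffold, against 0.0735, 0.0518 and 0.0917 on plates. The scaffold ratios were close to each other and all above the plate ratios, and their mean of 0.426 ± 0.0444 was 5.89 times the plate mean of 0.0723 ± 0.0200 (SD, n = 3 each). The ratio of Inhba to Id3 was 5.51, 9.57 and 7.64 on the scaffold, against 1.27, 1.27 and 1.62 on plates. Here the groups were also apart, by 5.46-fold in the means. The ratio of Pmepa1 to Tgfbi was 145, 124 and 83.8 on the scaffold, against 21.3, 24.1 and 14.8 on plates, again without overlap.

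The other 2 ratios, each of genes on the same side, overlapped between the surfaces. The ratio of Inhba to Pmepa1 was 1.13, 1.25 and 1.25 on the scaffold, against 1.05, 1.14 and 1.13 on plates. Their means, 1.21 ± 0.0670 on the scaffold and 1.10 ± 0.0488 on plates (SD, n = 3 each), differed by 1.09-fold. The ratio of Id3 to Smad9 was 25.6, 8.07 and 164 on the scaffold, against 15.6, 15.3 and 12.1 on plates. Plate libraries agreed on this ratio, while the scaffold libraries lay on both sides of them. Smad9 had only 7 and 14 reads in scaffold replicates 1 and 2, and a value of 0.990 in scaffold replicate 3. On plates it had 24 to 28 reads. The part of counting error in this spread was not tested.

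**Figure D3:**
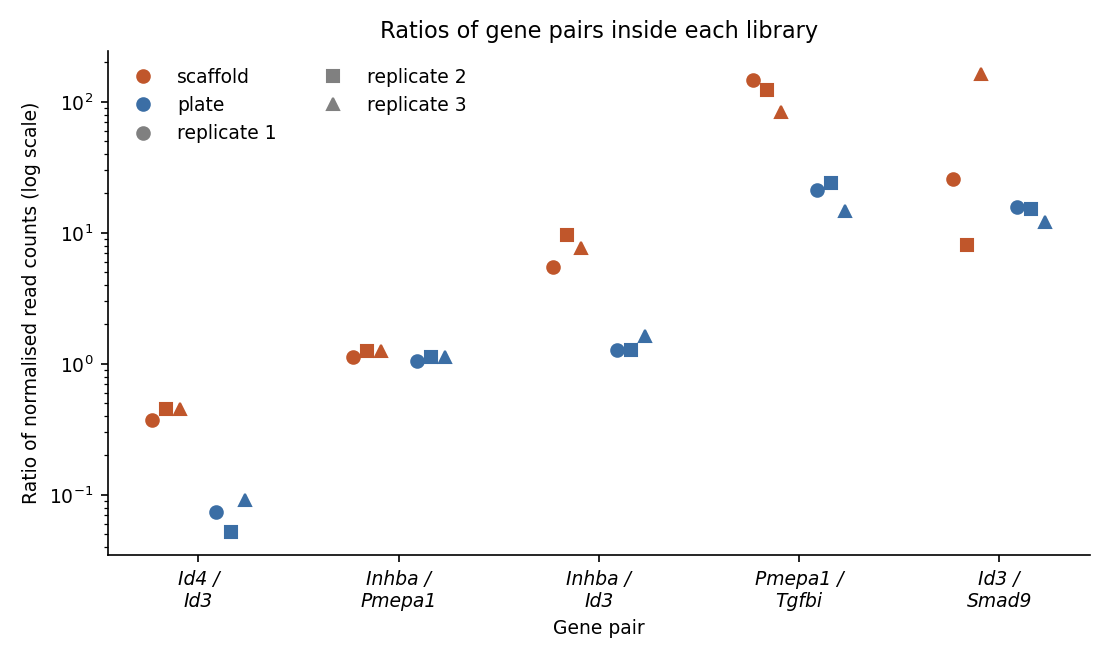
Ratio of the normalised read counts of 2 genes in the same library (y axis, log scale) for 5 gene pairs, with the scaffold libraries left of the plate libraries and symbols for replicates. The surfaces are apart for Id4 over Id3, Inhba over Id3 and Pmepa1 over Tgfbi, and overlap for Inhba over Pmepa1 and Id3 over Smad9.

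Divided by the gene length in the deposited table, levels could be ordered among the 6 genes. On the scaffold, Pmepa1 had 191 ± 10.5 and Inhba 177 ± 17.8 normalised reads per kilobase, and although their SDs overlapped, Pmepa1 was the higher of the pair in each library, with 183, 187 and 203, against 159, 179 and 194 for Inhba. They were followed by Id3 with 86.7 ± 18.3 and Id4 with 17.0 ± 2.62. Tgfbi with 2.25 ± 0.796 and Smad9 with 1.43 ± 1.29 came last, and their spreads overlapped (SD, n = 3 each), with Tgfbi higher than Smad9 in replicates 1 and 3 and lower in replicate 2. On plates Id3 came first with 202 ± 19.9 normalised reads per kilobase, followed by Pmepa1 with 91.9 ± 5.30 and Inhba with 77.9 ± 3.38, each apart from the next by more than their SDs. Id4 with 6.72 ± 1.42, Tgfbi with 6.27 ± 1.88 and Smad9 with 4.73 ± 0.203 normalised reads per kilobase lay together at the bottom, where the SDs of Id4 and Tgfbi overlapped, as did those of Tgfbi and Smad9. Within libraries, Id4 exceeded Tgfbi in plate replicates 1 and 2 but not 3, and Tgfbi exceeded Smad9 in all 3, by the least in replicate 2, with 4.64 against 4.60. By level per kilobase, Id3 stood 119th of 581 genes on the scaffold and 68th on plates, Inhba 87th on the scaffold and 134th on plates, and Id4 252nd on the scaffold and 442nd on plates.

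Other genes of these pathways were taken from 7 fixed lists, whose shares of higher and lower genes lay near those of the whole table. Of 126 symbols in the lists of ligands, receptors, Smads, extracellular regulators, inhibitors and targets, 13 were in the table, the 6 genes among them. Of these 13, 4 were called higher and 9 lower, where 32.2% and 67.5% of the table were called so, and their median difference was -1.23 on the log2 scale, against -1.16 over all 581 genes. Nothing is read from this count, as the table was selected on the contrast. Under equal medians the calls of Smad9, Tgfbi and Acta2 ended, and under quantile normalisation those of Smad9, Tgfbi and Col1a2. None of 18 receptor symbols was in the table, and the symbols outside it, among them Id1, Id2, Smad6, Smad7 and Ccn2, were not analysed here.

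The 7 genes that joined the 6 from those lists comprised a ligand, a ligand activator and target genes. Among the ligands, the BMP-family gene Gdf5 had 1.03, 1.06 and 0.990 normalised reads on the scaffold, against 12.9, 10.3 and 12.4 on plates. With 2 scaffold reads and 37 plate reads over the 5 libraries, the normalised plate over scaffold ratio was 11.4 (95% interval 2.94 to 97.6, for counting error only). Of its exon length 40.3% overlaps an opposite-strand gene, so these reads are uncertain. Among the extracellular regulators, Thbs1, which encodes thrombospondin-1, an activator of latent TGF-beta, averaged 4203 ± 642 on the scaffold and 10122 ± 334 on plates (SD, n = 3 each).

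The table held 5 TGF-beta and activin targets, 4 lower on the scaffold and 1 higher, where 67.5% of the table was called lower and 32.2% higher. Il11, a cytokine induced by TGF-beta in fibroblasts, was the higher one, with 91.5, 103 and 122 normalised reads on the scaffold, against 36.8, 55.6 and 39.0 on plates. Acta2, the smooth muscle actin of myofibroblasts, averaged 69.6 ± 19.1 on the scaffold and 146 ± 16.9 on plates (SD, n = 3 each). The type I collagen genes Col1a1 and Col1a2, to which Tgfbi is joined in this list, differed by -1.31 and -1.08 on the log2 scale. Quantile normalisation, which gives the same value to the genes ranked first in each library, set the difference of Col1a2 to 0. The scaffold and plate values of these 5 genes did not overlap, nor did those of 98.6% of the table.

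Of 14 symbols in the Id family and BMP target list, the table held Id3, Id4 and Atoh8, a bHLH transcription factor gene known as a BMP target. Atoh8 had 2.06, 2.12 and 0.990 normalised reads on the scaffold, against 8.28, 15.4 and 10.5 on plates. Its 4 scaffold reads and 35 plate reads over the 5 libraries gave a plate over scaffold ratio of 5.39 (95% interval 1.93 to 20.9, for counting error only). The table itself assigns 6 genes to the bHLH family, and of these Id4 was higher and 5 were lower, namely Id3, Atoh8 and, named after their values were seen, Arnt2, Mitf and Mycn. Of the 29 genes with any family label in the table, 21 were lower, and 67.5% of the whole table was called lower. Smad9 was the only gene of the table with the Smad DNA-binding family label MH1.

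**Figure D4:**
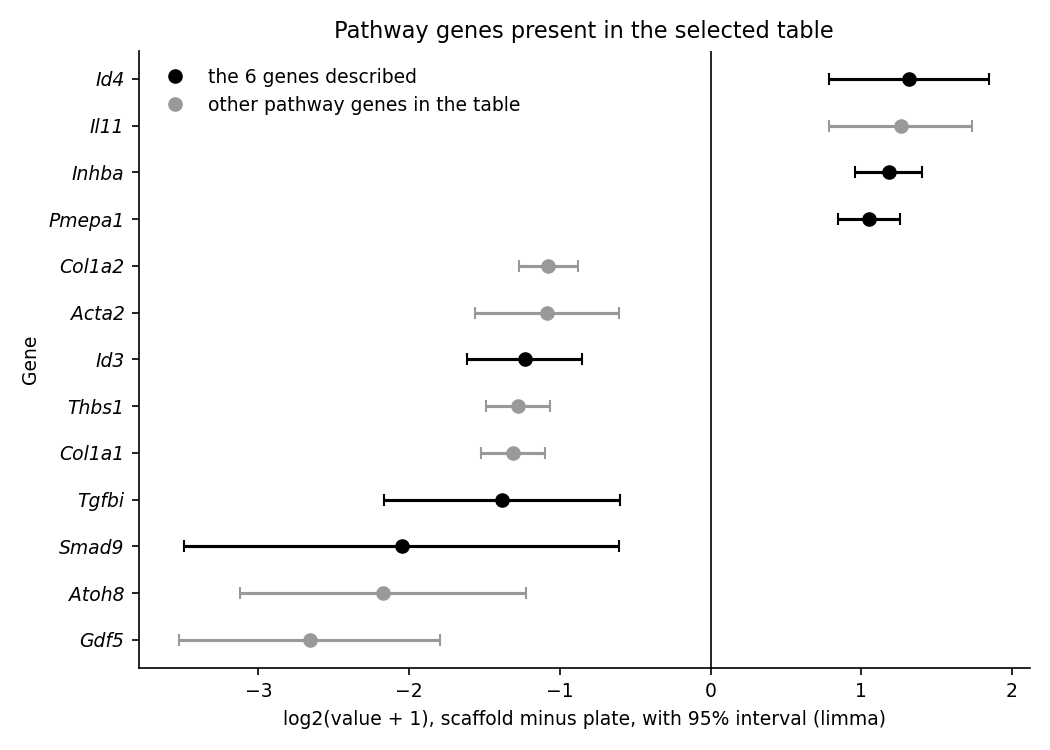
Difference between scaffold and plate on the log2(value + 1) scale (x axis) with the 95% interval of the limma fit, for the 13 pathway genes in the table, the 6 described genes in black and the other 7 in grey. Id4, Il11, Inhba and Pmepa1 lie above 0 and the other 9 below it, with the widest interval for Smad9.

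The genes with the most similar profiles were found by the root mean square difference between log2(value + 1) profiles, each centred on its mean over the 6 libraries, among 306 genes with a mean of at least 20. Inhba was nearest to Nipal1 (difference 0.0427) and Arhgap6 (0.0479), and Pmepa1 to Spry2 (0.0598), an inhibitor of receptor tyrosine kinase signalling, and the forkhead factor gene Foxc2 (0.0615). Nipal1 had 1395, 1550 and 1639 normalised reads on the scaffold, against 647, 660 and 660 on plates, and it ranked the scaffold libraries as Inhba did. That order adds nothing, as Nipal1 was picked for its likeness to Inhba. Scaffold replicate 3 was also the farthest from the plates in 93 of the 189 higher genes. Id3 was nearest to the non-coding gene Meg3 (0.108) and to Polr3gl (0.129), and Id4 to Ggct (0.164) and the stromelysin gene Mmp3 (0.174). Tgfbi and Smad9 were farther from their nearest genes, at 0.266 from Setbp1 and 0.278 from Alox5ap for Tgfbi, and at 0.462 from the receptor gene Notch3 and 0.574 from Sec16b for Smad9. Both averaged under 20 over the 6 libraries, so genes at their own level were not candidates. The part of counting error in their distances was not tested. Notch3 had 16.5, 10.6 and 1.98 normalised reads on the scaffold, against 38.6, 30.9 and 36.2 on plates, with its lowest value in scaffold replicate 3 as for Smad9. Notch3 was picked for this likeness, and scaffold replicate 3 was the farthest from the plates in 196 of the 392 lower genes. All these genes share the same 6 libraries, so the likeness is a description.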

How the data were processed

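Per the labels' protocols, TRIzol was used for RNA extraction and a NEBNext Ultra kit for library preparation. The submitters' processing notes name fastp, HISAT2, HTSeq, DESeq2 and the build GRCm39, with no versions. The authors deposited a normalised signal per gene and library. Table names call it FPKM, but in each library 100% of non-zero values were whole multiples of 1 step within 0.01 read, as counts divided by a size factor would be. A preset check accepted recovered reads in 5 libraries, not in scaffold replicate 3, whose step is near 1. Coordinates of the 6 genes equal those in GENCODE M21 (GRCm38), so they are given as GRCm38.

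Differences were estimated with limma 3.58.1 (R 4.3.3) on log2(value + 1) with an intensity trend, on genes with a mean of at least 0.5, adjusted by Benjamini-Hochberg over all 581 genes at 0.05. The script was tested on simulated data. Nothing in the labels states separate cultures, so the limma spread may be technical. Alternatives were pseudocounts, filters, 2 rescalings, a replicate block, each library left out, and edgeR 4.0.16 and DESeq2 1.42.0 on recovered reads. Promoters came from RefSeq, and exons and transcripts from GENCODE. Named genes were the 6, listed pathway genes in the table, and the 2 nearest profiles per gene (mean of at least 20, established symbol). The 6 genes and all lists were chosen with earlier results of these data known.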

Additional observations from a re-analysis of the deposited data

How the results depend on the processing

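No sign changed among the 125 alternative values of the 11 log2 differences and ratios. For the 6 genes most of these signs were fixed in advance, since their values did not overlap between the surfaces. Leaving out a library or changing the pseudocount could not reverse them, and filters and the replicate block left the differences unchanged. Of the 2 rescalings, equal medians moved all 6 differences upward, so it could have reversed only Id3, Tgfbi and Smad9. Its shift of the table median, 0.74, was smaller than the main difference of each, the smallest being -1.23 for Id3. The signs kept under equal medians therefore add little. Quantile normalisation was not fixed in this way. The counts of calls depended most on rescaling: equal medians shifted the median log2 difference of all genes by 0.74 and quantile normalisation by 0.63. Both used only selected genes, most of them lower on the scaffold. They left 208 (equal medians) and 210 (quantile normalisation) genes called lower in place of 392. With equal medians the log2 differences were -0.47 for Id3, 2.06 for Id4, 1.94 for Inhba, 1.81 for Pmepa1, -0.68 for Tgfbi and -1.39 for Smad9. With quantile normalisation they were 2.02 for Id4, -0.60 for Tgfbi and -1.26 for Smad9, whose adjusted p in limma was 0.0575 with equal medians and 0.0893 with quantile normalisation. Smad9 moved most without scaffold replicate 3 and in the count tests, which lack that library. Both rescalings left 4 of the listed pathway genes called higher, and called 6 lower in place of 9. Leaving out single libraries gave ranges of -2.71 to -1.21 for Smad9, -1.63 to -1.17 for Tgfbi, -1.37 to -1.06 for Id3, 1.13 to 1.45 for Id4, 1.11 to 1.26 for Inhba and 1.00 to 1.08 for Pmepa1. The log2 difference of Id3 over Smad9 ran from 0.01 to 2.19, of Id4 over Id3 from 2.37 to 2.78, of Inhba over Pmepa1 from 0.09 to 0.18, of Inhba over Id3 from 2.24 to 2.63 and of Pmepa1 over Tgfbi from 2.34 to 2.77. In count tests on 5 libraries Smad9 stood at -1.20 (edgeR) and -1.21 (DESeq2), and pseudocounts of 0.1 and 0.01 took it to -2.37 and -2.42. Same-numbered replicates did not deviate together (correlations -0.03, 0.07 and 0.06), and a fit with the replicate number as a block called 188 genes higher and 392 lower. Depth limits Smad9, Tgfbi, Gdf5 and Atoh8, with 2 to 21 scaffold reads each over 2 libraries.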
